A study of Mus musculus with 4 samples.

Results

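PAK1 phosphorylates or acts through a set of cytoskeletal and signalling proteins. The transcripts of 9 of them were followed here in mouse mammary tumour cells labelled Pak1-/- and Pak1+/+. The 9 genes were Limk1, Limk2, Cfl1, Map2k1, Arpc1b, Mylk, Stmn1, Flna and Nf2. They are targets or close downstream effectors of the kinase, and the rule that picked them used no value from the arrays. All non-control probes whose gene name in the scanner files was one of these symbols were taken, which gave 13 of the 39429 probes on the array: 6 genes had 1 probe, 2 genes had 2 and Cfl1 had 3. Every probe is given below, and the brightest probe of a gene stands for that gene.

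RNA came from cell cultures grown out of mammary tumours of MMTV-Neu mice, in which a mammary tumour virus promoter drives the Neu oncogene (Erbb2, the rodent counterpart of HER2) in mammary epithelium. The cells of 2 samples were labelled Pak1-/- and those of the other 2 Pak1+/+. Each group drew on 2 different tumours, and both groups carried the Neu transgene. The comparison is thus between labels of Pak1 status within Neu-driven tumour cells. Each tumour belonged to only 1 group, so tumour of origin and Pak1 status cannot be told apart. All cells were kept in low calcium medium with horse serum, left without serum for 3 h and then given EGF for 15 min. Each sample was hybridised to 1 single-colour array.

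The p21-activated kinases are serine/threonine kinases switched on by the GTPases Rac and Cdc42. PAK1 phosphorylates LIM kinase, which in turn phosphorylates and silences the actin-severing protein cofilin, and it also acts on an Arp2/3 subunit, myosin light chain kinase, filamin A, MEK1, stathmin and the tumour suppressor merlin. Through these proteins it ties growth factor receptors to actin turnover, contraction, microtubules and the ERK cascade. An array measures the transcripts of these proteins and not their phosphorylation.

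The transcripts of 4 of the 9 genes (44.4%) were higher in the cells labelled Pak1-/-, those of Arpc1b, Mylk, Flna and Map2k1, and none was lower by the brightest probe. The background was high, because 51.0% of the 22014 genes tested passed the same threshold, 22.8% higher and 28.2% lower. With 9 genes, the members' share of calls is not far from that of all genes. A rise of at least 2-fold that passed the threshold was seen for 3 members (Arpc1b, Flna and Mylk, Flna not in 3 alternatives) and for 6.99% of all genes tested. The median log2 difference was 0.26 over the 9 members and -0.05 over all genes, and that of the members was 0.086 and 0.12 with arrays scaled to their 75th percentile. For 8 of the 9 genes both values of one group lay above both values of the other, and this was so for 77.6% of all genes. Counted by probe, 5 of the 13 member probes passed, against 51.9% of all probes tested.

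Promoter sequences are shown for 3 members, the 250 bases upstream of the annotated start of Arpc1b, the member with the largest rise, of Map2k1, a member with a modest rise, and of Cfl1, whose change did not pass the threshold. These are RefSeq sequences on GRCm38.p6, written 5′ to 3′ on the gene's strand. Capitals mark GGGCGG or its reverse complement CCGCCC, the core that Sp1-type factors bind.
Arpc1b, chr5:145114006-145114255, plus strand: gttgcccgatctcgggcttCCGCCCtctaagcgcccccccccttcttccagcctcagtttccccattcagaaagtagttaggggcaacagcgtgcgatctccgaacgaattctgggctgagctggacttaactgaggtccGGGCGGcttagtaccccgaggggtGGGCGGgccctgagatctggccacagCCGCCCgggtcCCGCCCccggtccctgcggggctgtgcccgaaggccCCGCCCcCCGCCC
Map2k1, chr9:64253606-64253855, minus strand: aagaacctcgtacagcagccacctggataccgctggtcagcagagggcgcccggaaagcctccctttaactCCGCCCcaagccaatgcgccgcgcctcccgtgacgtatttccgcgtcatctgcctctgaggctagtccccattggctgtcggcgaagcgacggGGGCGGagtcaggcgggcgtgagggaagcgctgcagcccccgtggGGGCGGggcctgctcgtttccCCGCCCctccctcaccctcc
Cfl1, chr19:5490205-5490454, plus strand: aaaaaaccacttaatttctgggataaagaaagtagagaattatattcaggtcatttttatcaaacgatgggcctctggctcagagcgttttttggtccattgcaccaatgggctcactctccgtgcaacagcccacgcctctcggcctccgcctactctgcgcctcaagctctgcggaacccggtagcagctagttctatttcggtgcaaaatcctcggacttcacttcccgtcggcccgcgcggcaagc
The Arpc1b window held 7 such sites and the Map2k1 window 4. A Limk1 window that is not shown held 6, and the change of Limk1 did not pass the threshold. A relation between the number of sites and the change was not tested. Counting also the 50 bases after the start, 35.7% of all 32851 promoter windows held at least 1, so that the motif is common. The upstream bases of Cfl1 held none, and its 2 sites lay after the start.

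The table gave windows for 8 of the 9 genes, 12 windows in all. The windows of Flna and Mylk belonged to starts inside the gene, so they were searched but are not shown. The Flna window had 3 GGGCGG sites and the Mylk window had 0. TGANTCA, the AP-1 motif, lay 64 bases before the start in the Mylk window and was also found in a Limk2 window and in 7.81% of all windows. GGAATG, the TEAD motif, was found in the windows of Mylk and Flna and in 14.7% of all windows, and the core of the interferon-stimulated response element in that of Mylk and in 3.44%. The CArG box, which serum response factor binds in many actin and contractile genes, was in none of the 12 member windows, against 1.63% of all windows. CACGTG and TATAAA were in none of them either, against 7.15% and 13.6%. Both strands were searched, and a match describes the letters only.

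The arrays were alike in brightness, with a median spot intensity of 322 to 331 over a local background of 39 to 42, and 62.2% to 70.4% of probes were well above background. All 13 member probes were well above background on all 4 arrays, with no saturated spot and no outlier flag. Across probes, the Pearson correlation was 0.9969 and 0.9966 within the groups and 0.9543 to 0.9593 between them, a description over probes that share their arrays. Both arrays of each group lay next to each other on 1 slide, so that slide position and genotype cannot be told apart.

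The targeted gene did not separate the labels in the direction of a deletion. The Pak1 probe (mm9, chr7:105060220-105060279) read 12.21 and 12.25, as normalised log2 intensity, in the samples labelled Pak1-/-, and 12.04 in each of the others. The difference was 0.19 (SE 0.07, adjusted p = 0.070, limma). With cyclic loess it was 0.27 and passed the threshold (adjusted p = 0.027, limma). Whether the probe lies in the deleted part of the gene is not given in the sources used here. Every direction below therefore rests on the labels. Erbb2, the oncogene that both groups carry, had a log2 difference of -0.31 (adjusted p = 0.020) by a probe of the mouse gene, a call lost in 4 of its 16 alternatives.

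The cultures were checked against cell type markers. All 8 epithelial markers (keratins 7, 8, 18 and 19, Epcam, Cdh1, Cldn3 and Cldn4) gave a signal well above background somewhere, and their summed normalised intensity was 1156580 and 1166290 in the Pak1-/- arrays and 1075160 and 1052340 in the Pak1+/+ arrays. Single epithelial markers went opposite ways: Cdh1, encoding E-cadherin, was higher (log2 difference 1.19, adjusted p = 0.0012), as were Krt8 (0.57, adjusted p = 0.0029, lost in 1 of its 16 alternatives) and Krt18 (0.27, adjusted p = 0.027, lost in 8), while Krt7 was lower (-1.10, adjusted p = 0.00056). Of the 8 fibroblast markers 4 stood out from background on some array and Col3a1, Dcn, Lum and Pdgfrb on none, with sums of 1564 and 1375 against 1251 and 1213. Of the 3 that were tested, 1 was higher (Col1a1, 1.12, adjusted p = 0.0051) and the other 2 did not pass the threshold. Of the 8 leukocyte markers 6 were well above background on all 4 arrays, Itgam, Cd3e and Csf1r among them, and Lyz2 on none, with sums of 74984 and 52320 against 48153 and 43702. Itgam, the brightest of these markers (mean log2 intensity 15.79 against 15.30), dominated the sums. Of the 6 leukocyte markers that were tested, 2 were lower, Adgre1, a macrophage marker (-1.05, adjusted p = 0.0011), and Ptprc, the pan-leukocyte CD45 gene (-0.45, adjusted p = 0.0056), and the other 4 had differences of -0.20 to 0.49 and did not pass. Both lower markers were dim, with means of 7.48 against 8.52 for Adgre1 and 7.14 against 7.59 for Ptprc. Of the 6 endothelial markers, Kdr and Pecam1 were well above background on all 4 arrays and Tek on none, with sums of 10535 and 10135 against 9248 and 10912, and none passed the threshold. The smooth muscle and myoepithelial markers differed: 8 of 10 gave a signal well above background on some array, and their sum was 123579 and 120029 against 43363 and 42898. Krt14, a basal keratin, and Smtn made up 82.3% and 82.5% of that sum in the Pak1-/- arrays and 56.5% and 58.8% in the others, and without them it was 21840 and 20991 against 18864 and 17693. Of the 7 that were tested, 5 were higher, Krt14 (log2 difference 2.83), Acta2 (1.69), Smtn (1.26), Krt5 (0.50, lost in 4 of its 16 alternatives) and Trp63 (0.43, lost in 3), while Tagln (-0.20, adjusted p = 0.13) and Cnn1 (0.04, adjusted p = 0.83) did not pass the threshold. The second probe of Trp63 was also higher and passed (1.19). For the muscle markers Myh11 and Des, no array gave a signal well above background. The part of myoepithelial or other cells in the results on contractile and actin-binding genes below was not tested, and a different number of cells of a type cannot be told apart from a different amount of RNA per cell.

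**Figure D1:**
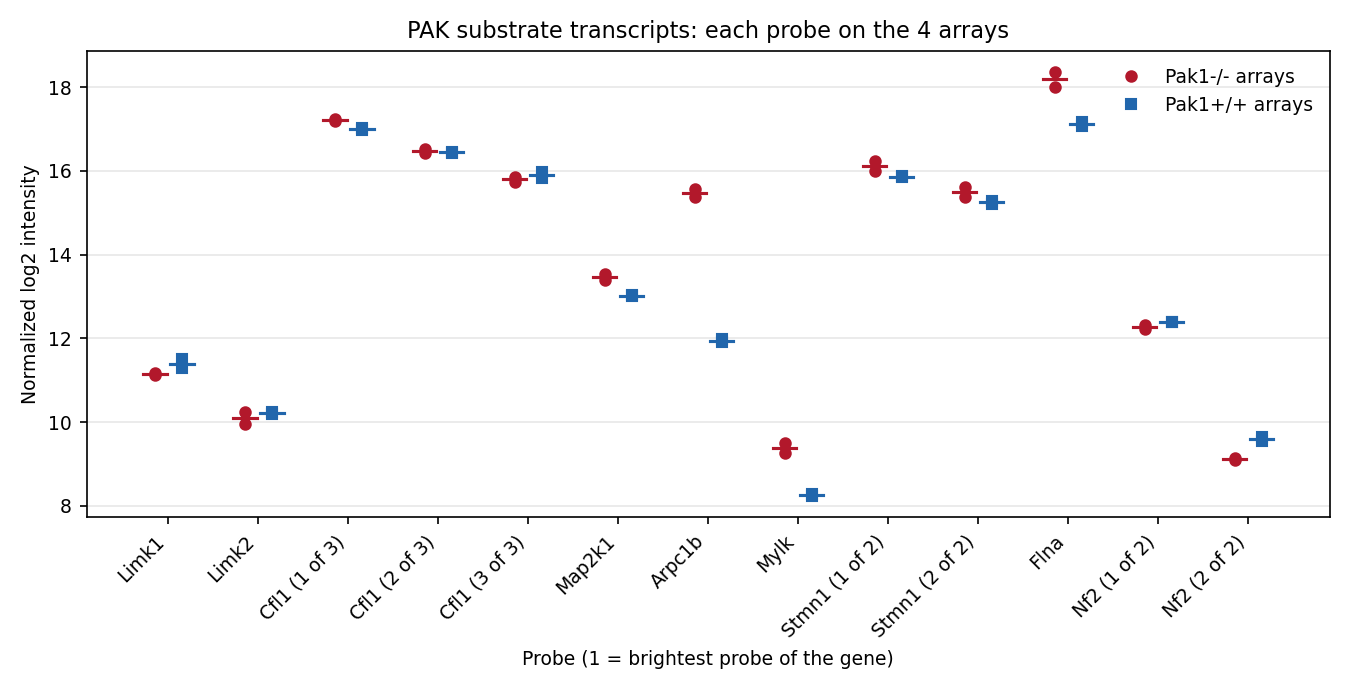
Normalised log2 intensity of all 13 probes of the 9 PAK substrate genes on each of the 4 arrays, 2 labelled Pak1-/- and 2 labelled Pak1+/+, each point being 1 array. The widest separation is that of Arpc1b, at 15.38 and 15.56 against 11.90 and 11.99, and the points of Limk2 overlap.

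LIM kinases and cofilin, the actin-severing branch of PAK signalling, showed small differences. Limk1 encodes the kinase that PAK1 activates and that phosphorylates cofilin. Its probe (A_55_P1966987, mm9 chr5:135131917-135131976) read 11.18 and 11.13 in the Pak1-/- arrays and 11.30 and 11.50 in the Pak1+/+ arrays. Both Pak1-/- values lay below both Pak1+/+ values, but the log2 difference of -0.24 (SE 0.10, 95% interval -0.50 to 0.01) did not pass the threshold (adjusted p = 0.096). Limk2, the second LIM kinase, is better known as a target of ROCK. Its probe (A_55_P2066304, mm9 chr11:3243386-3243445) read 10.25 and 9.96 against 10.18 and 10.23. The groups overlapped, the first Pak1-/- array being the highest of all 4 and the second the lowest, and the difference was -0.11 (SE 0.12, interval -0.42 to 0.20, adjusted p = 0.49).

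Cfl1, non-muscle cofilin, was read by 3 probes in the same stretch of chromosome 19, and none passed the threshold. The brightest (A_55_P2000548, mm9 chr19:5493949-5494008) read 17.20 and 17.23 in the Pak1-/- arrays against 16.98 and 17.03. The groups did not overlap, and the difference was 0.22 (SE 0.07, interval 0.03 to 0.40, adjusted p = 0.054). Its sign depended on the scaling: with arrays scaled to their 75th percentile in place of quantile normalisation it was -0.08 on the processed signal and -0.05 on normexp values. The other probes overlapped between groups. A_52_P748958 (chr19:5493882-5493941) read 16.42 and 16.53 against 16.46 and 16.44, a difference of 0.03 (adjusted p = 0.77), and A_55_P1974788 (chr19:5493399-5493458) read 15.73 and 15.87 against 15.97 and 15.83, a difference of -0.10 (adjusted p = 0.41).

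Among the other genes of the cofilin cycle, 12 of 13 were tested and 4 were higher, 1 lower and 7 not past the threshold (33.3% and 8.33%, beside 22.8% and 28.2% of all genes), with a median of 0.14. Cap2, the untested gene, was dim on all 4 arrays. The largest rise was that of Tesk1, a second cofilin kinase, with 14.05 ± 0.05 against 12.22 ± 0.12 (SD, n = 2 each; log2 difference 1.83, adjusted p = 0.00030, limma). Its paralogue Tesk2 rose by 0.37 (adjusted p = 0.031), a call lost in 6 of its 16 alternatives. Cap1, which recycles actin monomers, rose by 1.01 (adjusted p = 0.00067), and Wdr1, the cofactor of cofilin in taking filaments apart, rose by 0.57 (adjusted p = 0.0063). Cfl2, muscle cofilin, was the gene that fell, with a log2 difference of -0.54 (adjusted p = 0.0042), and its second probe also fell. The slingshot phosphatases Ssh1, Ssh2 and Ssh3, which reactivate cofilin, had differences of 0.12, -0.10 and 0.07, none past the threshold, and Dstn, the third member of the cofilin family, had 0.08 (adjusted p = 0.49), which turned negative with 75th-percentile scaling.

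Arpc1b showed the largest change of the 9 genes. It encodes a subunit of the Arp2/3 complex, which starts branched actin filaments, and PAK1 phosphorylates this subunit. The probe (A_55_P2023076, mm9 chr5:145888995-145889054) read 15.38 and 15.56 in the Pak1-/- arrays and 11.90 and 11.99 in the Pak1+/+ arrays. The groups lay far apart: before any background correction the mean spot intensity was 40028 and 50034 against 3927 and 3941. The log2 difference was 3.53 (SE 0.09, interval 3.28 to 3.77), an 11.5-fold higher level (adjusted p = 8.6e-05, limma), and 0.641% of all genes tested had a larger rise. It stayed between 3.44 and 3.63, and past the threshold, under all 16 alternatives.

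Of 13 genes tested of the rest of the Arp2/3 complex and its activators, 5 were higher, 4 lower and 4 not past the threshold (38.5% and 30.8%, beside 22.8% and 28.2% of all genes), with a median of 0.15. Arpc1a, the alternative form of the same subunit, fell, with a log2 difference of -0.40 (adjusted p = 0.015), so that the 2 forms of this subunit went in opposite directions, although the fall of Arpc1a was lost in 4 of its 16 alternatives. Of the alternative forms of other subunits, Actr3b rose by 1.05 (adjusted p = 0.00068), Actr3 by 0.50 (adjusted p = 0.015), Arpc5 by 0.47 (adjusted p = 0.0061) and Arpc5l by 0.53 (adjusted p = 0.0041). Actr2, which with Actr3 forms the site where the new filament starts, had a difference of -0.37 (adjusted p = 0.013). The calls of Actr3 and Actr2 were each lost in 3 of 16 alternatives. Arpc2, Arpc3 and Arpc4, which have no alternative form on the list, had 0.15, -0.21 and -0.25 and did not pass, and the value of Arpc2 turned negative with 75th-percentile scaling. The second probe of Arpc4 was lower and passed (-0.35), and its brightest probe passed in 3 of 16 alternatives. Among the activators, Wasf2 rose by 1.07 (adjusted p = 0.00090), while its paralogue Wasf1 and the related Wasl fell, with differences of -1.24 (adjusted p = 0.00066) and -0.35 (adjusted p = 0.013, lost in 3 of 16 alternatives).

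Mylk and Flna, a contractile kinase and an actin crosslinker, both rose. Mylk encodes myosin light chain kinase, which PAK1 inhibits by phosphorylation. Its probe (A_55_P2222870, mm9 chr16:35001266-35001325) read 9.502 and 9.266 in the Pak1-/- arrays and 8.273 and 8.232 in the Pak1+/+ arrays. The groups did not overlap, and the Pak1-/- arrays differed more from each other than the Pak1+/+ arrays did. The log2 difference was 1.13 (SE 0.10, interval 0.86 to 1.40, 2.19-fold, adjusted p = 0.0014), and 5.93% of all genes tested had a larger rise. Of its paralogues, Mylk2 had a difference of 0.07 (adjusted p = 0.52) and Mylk3 was well above background on 1 of the 4 arrays and was not tested.

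Of the genes that act with Mylk on myosin, 11 of 12 listed were tested, and 7 were higher (63.6%), 1 lower and 3 not past the threshold, with a median of 0.57. Over all genes 22.8% were higher and 28.2% lower, with a median of -0.05. The non-muscle myosin heavy chains Myh9, Myh10 and Myh14 rose by 0.93 (adjusted p = 0.0081), 0.92 (adjusted p = 0.0010) and 0.57 (adjusted p = 0.0027). The regulatory light chains, which Mylk phosphorylates, rose as well: Myl9 by 1.36 (adjusted p = 0.0087), Myl12a by 0.72 (adjusted p = 0.0040) and Myl12b by 0.67 (adjusted p = 0.0025). Myl9 had a wide spread, with 10.03 and 9.35 against 8.34 and 8.32. Of the myosin phosphatase, which opposes the kinase, Ppp1r12b fell (difference -0.31, adjusted p = 0.019, lost in 4 of 16 alternatives), and Ppp1r12a (0.22) and Ppp1cb (-0.06, with a positive sign under cyclic loess) did not pass the threshold. The smooth muscle and myoepithelial marker sum, which Krt14 and Smtn dominated as given above, was higher in the same arrays.

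Flna encodes filamin A, which crosslinks actin filaments, binds PAK1 and is phosphorylated by it. Its probe (A_55_P2001920, mm9 chrX:71468802-71468861) read 18.36 and 18.01 in the Pak1-/- arrays against 17.07 and 17.18. Both Pak1-/- values were above both Pak1+/+ values, by more than the 0.35 that parted the Pak1-/- arrays. The log2 difference was 1.07 (SE 0.14, interval 0.70 to 1.43, 2.09-fold, adjusted p = 0.0038). It stayed past the threshold but under 2-fold with 75th-percentile scaling (0.79 on both the processed signal and normexp values) and without the first Pak1-/- array (0.89), and 6.45% of all genes tested had a larger rise. Its paralogue Flnc, the muscle form, rose with it and read 9.89 and 10.02 against 7.94 and 7.95 (difference 2.01, adjusted p = 0.00018). The filamin-binding genes Filip1l and Fblim1 rose by 2.40 (adjusted p = 0.00013) and 1.23 (adjusted p = 0.00052).

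**Figure D2:**
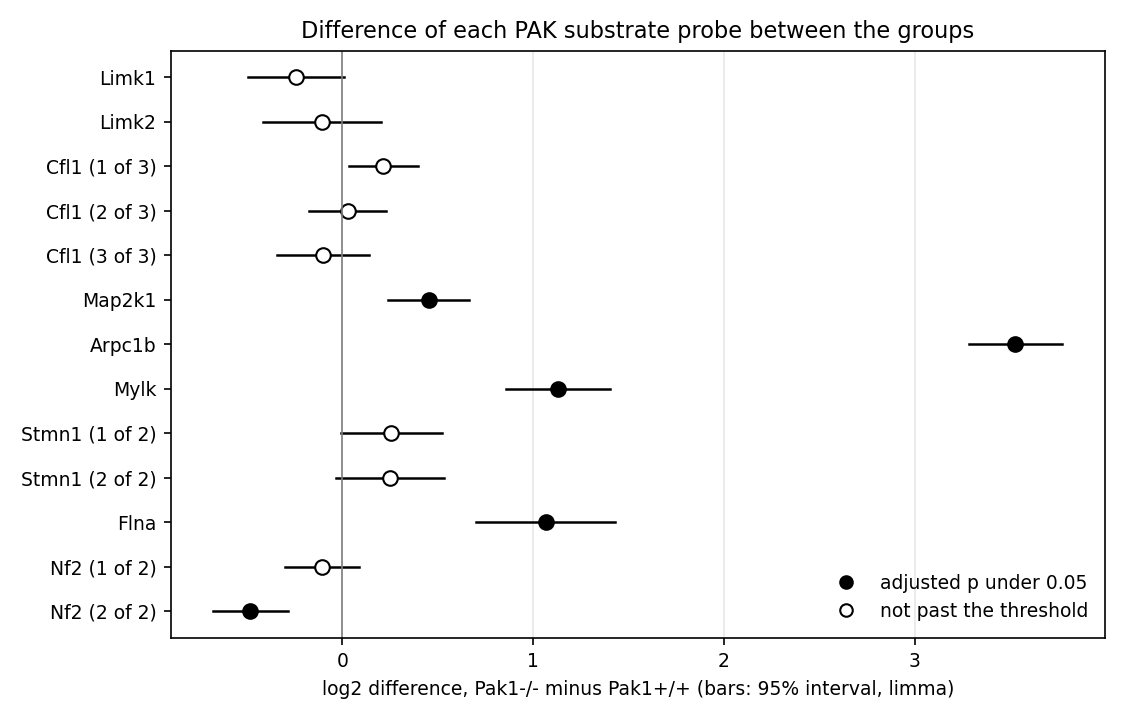
Log2 difference between the Pak1-/- and Pak1+/+ arrays for each of the 13 probes, with its 95% interval from limma. The intervals of Arpc1b (3.28 to 3.77), Mylk, Flna, Map2k1 and the brightest Cfl1 probe (0.03 to 0.40, adjusted p = 0.054) lie above 0 and that of the Nf2 probe A_52_P555913 (-0.67 to -0.29) lies below it.

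Map2k1, which encodes MEK1, rose slightly. MEK1 is the kinase that activates ERK, and PAK1 phosphorylates it at a site that favours its activation by RAF. The probe (A_51_P241074, mm9 chr9:64034232-64034291) read 13.40 and 13.54 in the Pak1-/- arrays and 13.03 and 13.00 in the Pak1+/+ arrays, with no overlap. The log2 difference was 0.45 (SE 0.08, interval 0.24 to 0.66, 1.37-fold, adjusted p = 0.0097), and it missed the threshold when the second Pak1+/+ array was left out (0.44, adjusted p = 0.0501). Its paralogue Map2k2, encoding MEK2, went the other way, with 14.16 and 14.22 against 14.51 and 14.46 (difference -0.30, adjusted p = 0.024), a call lost in 7 of its 16 alternatives.

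Of 10 genes tested of the RAF-MEK-ERK module around it, 3 were higher, 3 lower and 4 not past the threshold, with a median of 0.01. These shares lay near those of all genes (22.8% higher, 28.2% lower). Mapk3, encoding ERK1, had a difference of 0.09 (adjusted p = 0.63). Braf and the scaffold Ksr1 fell, with differences of -0.49 (adjusted p = 0.0076) and -0.46 (adjusted p = 0.010, lost in 2 of 16 alternatives), whereas Araf had -0.13 (adjusted p = 0.25). Lamtor3, the MEK1 scaffold, and Pebp1, which holds RAF off MEK, rose by the brightest probe (0.35 and 0.38), but for each another probe had the opposite sign, -0.58 and -0.25, and their calls were lost in 6 and 11 of 16 alternatives.

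Stmn1 encodes stathmin, which binds tubulin dimers and is switched off by phosphorylation. Its brightest probe (A_55_P2043862, mm9 chr4:134029355-134029414) read 16.005 and 16.235 in the Pak1-/- arrays against 15.871 and 15.857. The second probe (A_55_P2068663, chr4:134029695-134029754) read 15.37 and 15.62 against 15.22 and 15.28. The groups did not overlap on either probe, and the differences were almost the same, 0.26 (SE 0.10, interval -0.01 to 0.52, adjusted p = 0.093) and 0.25 (adjusted p = 0.12), neither past the threshold. The value of the second probe ranged from 0.12 to 0.38 over its 15 alternatives, and it passed with cyclic loess (0.38, adjusted p = 0.027, limma). The value of the brightest probe moved with the processing: it passed under 3 alternatives, with 0.37 (adjusted p = 0.038) when the first Pak1-/- array was left out, and it fell to 0.14 (adjusted p = 0.21) without the second and to 0.086 (adjusted p = 0.61) and 0.12 (adjusted p = 0.47) with 75th-percentile scaling.

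The other stathmins were low. Stmn2 and Stmn3, neuronal forms, were too dim to be tested, below the well above background mark on all 4 arrays, and Stmn4 had a difference of -0.16 (adjusted p = 0.15). Of the 9 microtubule regulators tested of 11 listed, 5 were higher (55.6%, beside 22.8% of all genes) and 0 lower, with a median of 0.24. They were the plus-end proteins Mapre2 (1.54, adjusted p = 0.00034), Mapre3 (0.32, adjusted p = 0.018) and Clip1 (0.24, adjusted p = 0.038), the last pair losing the call in 6 and 10 of 16 alternatives, Arhgef2, a microtubule-bound exchange factor that PAK1 phosphorylates (0.89, adjusted p = 0.0015), and Map4, which stabilises microtubules (0.67, adjusted p = 0.013, lost in 2 of 16).

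Nf2, which encodes the tumour suppressor merlin, gave different answers by probe. PAK1 phosphorylates merlin and thereby turns off its growth-restraining form. The brightest probe (A_55_P2423646, mm9 chr11:4666761-4666820) read 12.23 and 12.33 in the Pak1-/- arrays against 12.39 and 12.38, a log2 difference of -0.11 (SE 0.07, interval -0.30 to 0.09) that did not pass the threshold (adjusted p = 0.28). The second probe (A_52_P555913) has 60 bases that span chr11:4682326-4684468 in the files' coordinates, 2083 bases more than its own length, so it crosses an exon junction of the merlin transcript. It read 9.08 and 9.14 against 9.56 and 9.63. These values were well separated, and the difference was -0.48 (SE 0.07, interval -0.67 to -0.29, a 1.40-fold lower level, adjusted p = 0.0062), past the threshold in all 15 alternatives. Both probes had their Pak1-/- values below their Pak1+/+ values, and the difference between the probes' changes was not tested.

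With filamin partners, the genes around merlin made up a list of 12, of which 7 were higher (58.3%, beside 22.8% of all genes), 0 lower and 5 not past the threshold, with a median of 0.69. Merlin belongs to the family of ezrin, radixin and moesin, which link membranes to actin. Ezr rose by 0.70 (adjusted p = 0.0036), while Msn (0.25, adjusted p = 0.11) and Rdx (0.16, adjusted p = 0.16, with -0.25 on a second probe) did not pass the threshold. Of the Hippo kinases that merlin activates, Lats2 rose by 0.87 (adjusted p = 0.0023) and Lats1 had 0.20 (adjusted p = 0.27).

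**Figure D3:**
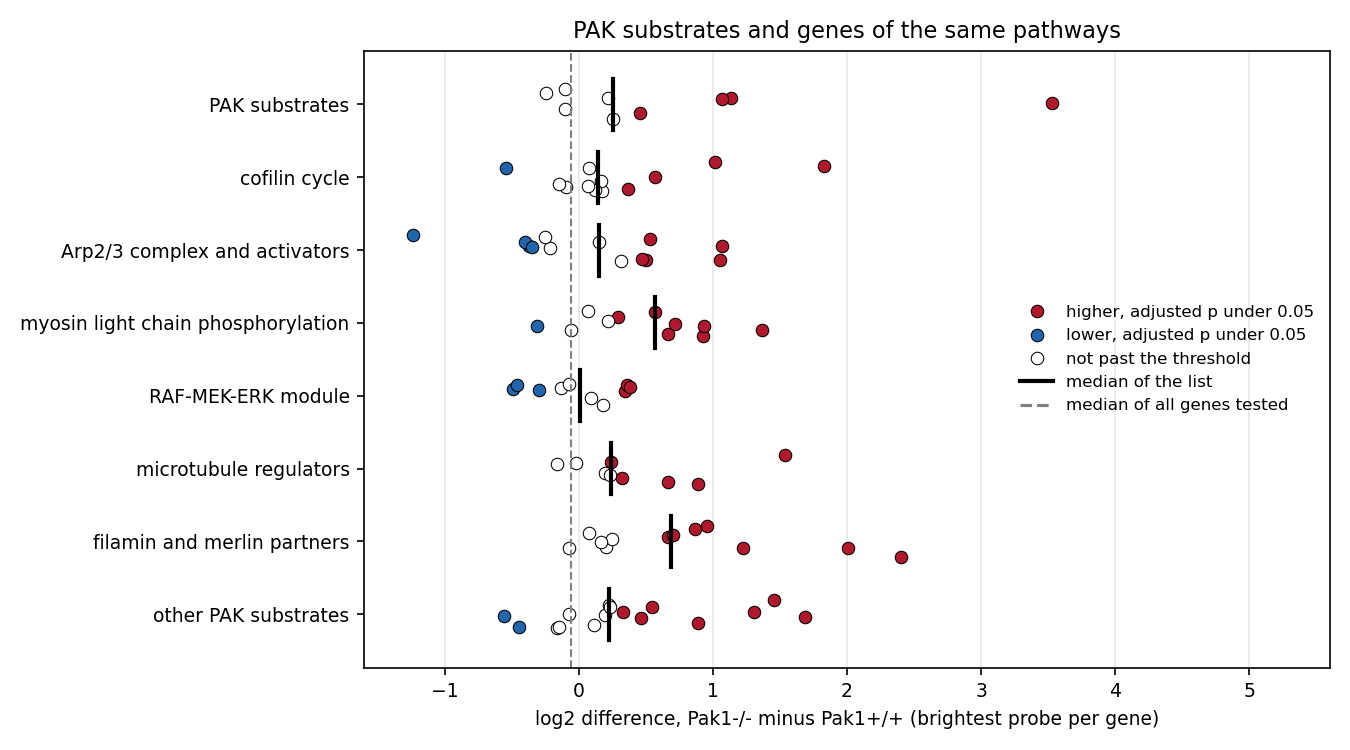
Log2 difference (Pak1-/- minus Pak1+/+) of the 9 substrate genes and of the tested genes of 7 related lists, each point being 1 gene by its brightest probe and each vertical mark the median of its list. The median is highest for filamin and merlin partners (0.69) and near 0 for the RAF-MEK-ERK module (0.01).

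A further list held 16 other reported PAK substrates, and all were tested. The threshold was passed by 7 that were higher (43.8%, beside 22.8% of all genes) and 2 that were lower, with a median of 0.23. Among the higher ones were Snai1, a transcriptional repressor whose known targets include Cdh1, itself higher here (1.69 for Snai1, adjusted p = 0.00031), the intermediate filament gene Vim (1.45, adjusted p = 0.0033), Cald1, which binds actin and myosin (1.30, adjusted p = 0.0032), and Ilk, an integrin-linked adhesion protein (0.55, adjusted p = 0.0041). The lower ones were Ctnnb1, encoding beta-catenin (-0.56, adjusted p = 0.0053), and Pcbp1, an RNA-binding protein (-0.45, adjusted p = 0.0064). Bad, the cell death protein that PAK1 inactivates, had 0.22 (adjusted p = 0.096). Over all these lists, 79 of the 83 genes on the array were tested, and 37 were higher (46.8%), 11 lower (13.9%) and 31 not past the threshold, with a median of 0.23. Over all genes tested the shares were 22.8% and 28.2% and the median -0.05.

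**Figure D4:**
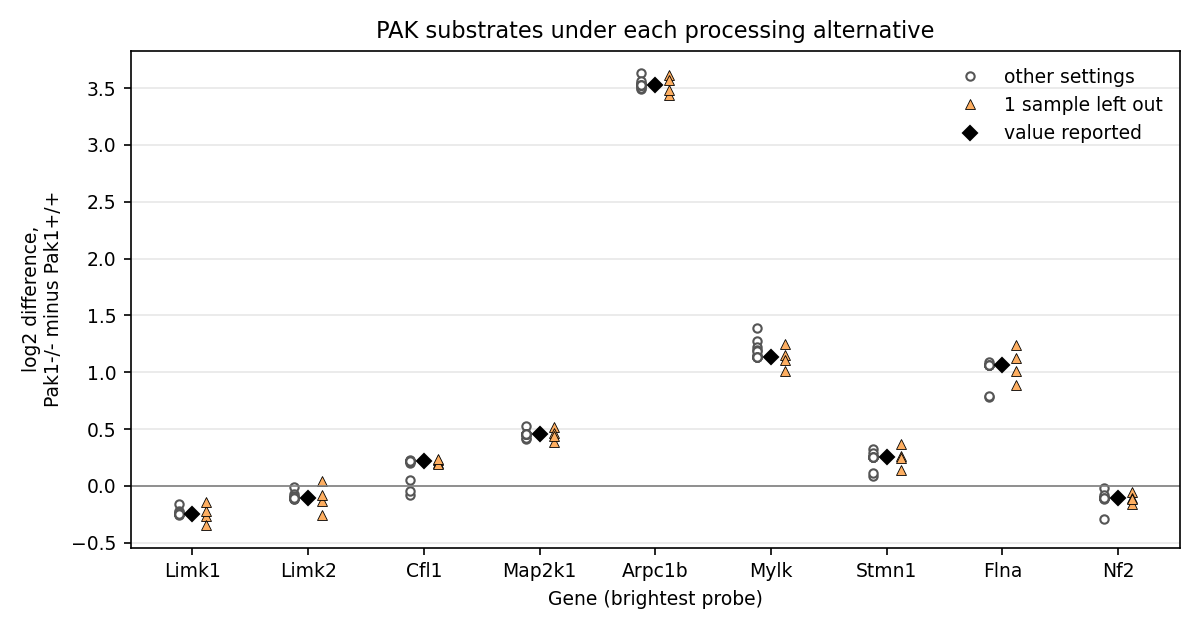
Log2 difference of each of the 9 genes under the main processing and under each alternative. Arpc1b, Mylk, Flna, Map2k1 and Stmn1 (0.086 to 0.37) stay above 0 throughout. Limk1 (-0.35 to -0.14) and Nf2 (-0.29 to -0.02) stay below 0, and Cfl1 and Limk2 lie on both sides of 0.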

How the data were processed

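Per the file headers and the study's methods, the deposited scanner files held linear spot intensities, made by the authors with Agilent Feature Extraction 9.5 without normalisation between arrays. A second deposited table, from the authors, holds normexp-corrected, quantile normalised log2 values, with values in 24008 rows, used here as an alternative. From the scanner files, background was corrected with normexp (offset 50, chosen here) in limma 3.58.1 (R 4.3.3), control spots were removed, and 43020 spots were then log2 transformed and quantile normalised. Spots flagged as outliers were left out and spots averaged to 39429 probes, of which the 27229 that passed the scanner's well-above-background flag on 2 or more of the 4 arrays were tested with lmFit and eBayes, two-sided, with genotype as the only term. P-values were adjusted over those probes by Benjamini-Hochberg, with a threshold of 0.05, and 51.9% of them passed. With 2 arrays a group, the number of arrays limits the precision (2 residual degrees of freedom, prior 2.62), and an exact permutation test could not give a p under 0.333. A fold change understates that of dim probes because of the offset. Steps were tested on simulated data.

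The substrates and lists were chosen from general knowledge, with earlier results of these data known. Named were all members and their paralogues, apart from some items not reported here, the genes of each list with the largest changes past the threshold, and others of known role, these chosen after their values were seen. Probes were named through RefSeq accessions (26055 of 32334 matched). Probe coordinates are the files' mm9, and promoters RefSeq's on GRCm38.p6. Exons were not assigned, as no mm9 annotation was used here.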

Additional observations from a re-analysis of the deposited data

How the results depend on the processing

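Of the members' own values, Arpc1b, Mylk, Flna and the Nf2 probe A_52_P555913 kept their direction and stayed past the threshold under every alternative run for them. The number of member genes higher ranged from 3 to 6 over the alternatives, and from 3 (without the second Pak1+/+ array, where Map2k1 was lost) to 5 when 1 array was left out; it was 6 with an intensity trend in the prior. The number lower became 1 with the mean over a gene's probes (Nf2, -0.29, adjusted p = 0.026), and was 0 whichever array was left out. The members' median log2 difference of 0.26 was 0.086 with the processed signal and 0.12 with normexp values scaled to the 75th percentile, and 0.20 to 0.37 when 1 array was left out, the highest being without the first Pak1-/- array. Of 13 member probes, 5 passed, 3 of them also with a 2-fold requirement, and 4 to 7 with 1 array left out. Over the whole array, the number of probes past the threshold was 14132, with 8878 at an adjusted p of 0.01, 3413 with a 2-fold requirement and 10307 to 12164 with 1 array left out. The cause of these shifts was not tested.

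Signs turned for values that had not passed: Cfl1 (-0.078 with the processed signal, -0.046 with normexp, both at the 75th percentile), its probe A_52_P748958 (-0.18 and -0.17, and -0.028 to 0.087 with 1 array left out), Dstn (-0.15 and -0.12), Limk2 (-0.25 to 0.040 with 1 array left out), Mylk2 (-0.0053 to 0.14 with 1 array left out), Rdx (-0.045 with the mean over probes), Arpc2 (-0.15 and -0.12 with the processed signal and normexp at the 75th percentile), Ppp1cb (0.040 with cyclic loess, and -0.13 to 0.0067 with 1 array left out), Mapk3 (-0.10 to 0.29 with 1 array left out) and Cnn1 (-0.0064 with the authors' table, and -0.12 to 0.19 with 1 array left out). Cfl1 passed the threshold with the filter on all 4 arrays (adjusted p = 0.045) and with the intensity trend (adjusted p = 0.0094). Higher calls were 44.9% of all calls, and 52.4% with cyclic loess.

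The replicate numbers did not pair the samples (r of the replicate differences -0.028). With the replicate number as a block, there were 13211 probes past the threshold, the members' counts of 4 higher and 0 lower and their median of 0.26 did not move, and among the genes named Map2k2 (adjusted p = 0.053), Pebp1 (adjusted p = 0.054), Tesk2 (adjusted p = 0.051), Clip1 (adjusted p = 0.080) and Krt18 (adjusted p = 0.056) lost their calls.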
